A study of Mus musculus with 4 samples.

Results

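The respiratory chain genes of mouse regulatory T (Treg) cells were taken as every gene whose symbol starts with Nduf, Uqcr, Atp5, Cox4, Cox5, Cox6, Cox7, Cox8 or mt- in both deposited expression tables. The rule gave 102 of the 22056 genes: 89 are encoded in the nucleus and 13 in mitochondrial DNA. By role, the nuclear members comprise 36 subunits of complex I, 8 complex I assembly factors, 8 genes of complex III, 20 of complex IV and 17 of complex V (ATP synthase). The mitochondrially encoded members comprise 7 subunits of complex I, 1 of complex III, 3 of complex IV and 2 of complex V. Live CD4+ TCRβ+ YFP+ cells were sorted from C57BL/6 mice, at over 95% purity per the labels, and profiled as single cells with 3' tag libraries carrying unique molecular identifiers (UMIs, 1 per captured transcript). There were 4 libraries, 1 per group: cervical draining lymph node (LN) cells on day 1 of an oxazolone challenge from ICOS FC mice, which the labels call ICOS-deficient, the same from ICOS WT mice, steady-state spleen cells from ICOS FC mice, and steady-state spleen cells from ICOS WT mice. Oxazolone is a hapten that provokes contact hypersensitivity, and ICOS is a costimulatory receptor of activated T cells. The sources used here do not state what drives YFP, what allele ICOS FC stands for, how old the mice were or how many gave each library.

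The respiratory chain passes electrons from NADH and succinate to oxygen through complexes I to IV in the inner mitochondrial membrane, and complex V uses the proton gradient so made to form ATP. Complexes I, III, IV and V are assembled from subunits of both genomes, whereas complex II is wholly nuclear. The mitochondrially encoded subunits form catalytic and membrane-spanning parts, and their messages are cut from long transcripts of the whole circle, so they share transcription in a way the nuclear genes do not. Treg cells are known to rely on oxidative metabolism, and activated T cells enlarge their mitochondria as they grow.

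The libraries labelled ICOS FC and ICOS WT held 2066 and 1897 LN cells and 5917 and 4995 spleen cells, with between 15045805 and 28256866 UMIs a library and median UMIs per cell of 6789 and 6591 in the LN and 4361 and 5044 in the spleen. Each group was 1 library, so no difference was tested, no replicate error exists, and every interval given covers counting error only at 95%. Icos itself was at 928 CPM in the LN library labelled ICOS FC, against 599 CPM in that labelled ICOS WT, and at 258 against 112 CPM in the spleen, where CPM is UMIs per 1000000 UMIs of the library. The transcript was thus higher under the label that stands for its loss. A 3' tag may lie outside a deleted part, and the cells were matched to the labels by the meaning of the words KO and Control alone. Neither point was tested, so the libraries are called by their labels. Foxp3, the defining Treg factor, was at 70.7, 72.2, 59.0 and 53.2 CPM in LN ICOS FC, LN ICOS WT, spleen ICOS FC and spleen ICOS WT, but only at 4.03 CPM in spleen cluster 4. The LN libraries shared 30 cell barcodes, the spleen libraries 8. The deposited percent of mitochondrial counts equalled the sum of the 13 mitochondrially encoded members, within 1e-06 percentage points, in all 10912 spleen cells and all 3963 LN cells, and no deposited cell reached 10%. The upper end of the mitochondrially encoded levels was therefore cut by a limit on those same genes, and the 13 genes add up to all of what the deposited quality column holds. The share of mitochondrial messages is also known to rise in damaged cells. Above 9% mitochondrial counts lay 33 and 31 LN cells and 23 and 19 spleen cells labelled ICOS FC and ICOS WT, and their part in the results was not tested.

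Start regions are shown because some nuclear members, spread over many chromosomes, carry the same short letter runs, and because members with the same run differed in what follows. RefSeq promoter windows on GRCm38.p6, from 250 bases before to 50 bases after the start, were matched by symbol for 73 of the 89 nuclear members. The core of the site of NRF1, the nuclear respiratory factor, was searched as GCGCATGCG on both strands and stood in 10 of the 73 members (13.7%), against 2.61% of 17492 genes. The core of ETS family sites, CCGGAAG, stood in 16 members (21.9%), against 12.9% of genes. The YY1 core, AAGATGGCG, stood in 8 members (10.96%), against 2.14% of genes. The 17492 genes are all protein-coding genes with such a window, whether or not they were expressed here. The run GCGCATGCGC, in capitals in the lines that follow, holds the NRF1 core on both strands at once. Each line gives the 120 bases just before the start, 5′ to 3′ in the direction of the gene, for Atp5k (chr5:108434400-108434519, minus strand), Atp5g2 (chr15:102671048-102671167, minus strand), Ndufa11 (chr17:56717642-56717761, plus strand) and Ndufaf4 (chr4:24897963-24898082, plus strand).
Atp5k: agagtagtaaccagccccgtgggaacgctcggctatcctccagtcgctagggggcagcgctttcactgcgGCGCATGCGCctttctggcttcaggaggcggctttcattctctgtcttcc
Atp5g2: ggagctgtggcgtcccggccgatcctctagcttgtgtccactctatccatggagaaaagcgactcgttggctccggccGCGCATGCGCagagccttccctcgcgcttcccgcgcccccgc
Ndufa11: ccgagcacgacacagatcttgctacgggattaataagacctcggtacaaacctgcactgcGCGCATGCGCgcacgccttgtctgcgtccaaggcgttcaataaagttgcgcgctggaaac
Ndufaf4: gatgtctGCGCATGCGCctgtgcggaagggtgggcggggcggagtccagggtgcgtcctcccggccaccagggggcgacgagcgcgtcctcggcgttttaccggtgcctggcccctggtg
Of these, Atp5k had the highest LN over spleen ratio of all members, while Atp5g2 was level between the tissues and Ndufaf4 had ratios of opposite sign between the labels in the 2 tissues, with values given under those complexes. The 9 members with the NRF1 core and at least 20 CPM had log2 ratios of LN over spleen from 0.0033 to 1.47 under the label ICOS FC and from -0.021 to 1.35 under ICOS WT, so the run did not mark members of 1 behaviour. A match of letters is a description and not evidence of binding.

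Nuclear members were higher and mitochondrially encoded members lower, in sum, in the LN libraries than in the spleen libraries under both labels. The 89 nuclear members summed to 23419 and 22850 CPM in the LN libraries labelled ICOS FC and ICOS WT, against 18227 and 18644 CPM in the spleen. The 13 mitochondrially encoded members summed to 35050.2 and 37931 CPM in the LN, against 41611 and 42672 CPM in the spleen. The log2 ratio of LN over spleen was thus 0.36 [0.36, 0.37] for the nuclear sum and -0.25 [-0.25, -0.24] for the mitochondrial sum under ICOS FC, with the 95% counting interval in brackets. Under ICOS WT the ratios were 0.29 [0.29, 0.30] and -0.17 [-0.17, -0.17]. Both genomes together barely moved, at log2 ratios of -0.033 and -0.013. With each cell given equal weight in place of each UMI, the mitochondrial ratios shrank to -0.13 and -0.085 and the nuclear ratios to 0.25 and 0.20. With mitochondrial and cytosolic ribosomal protein genes left out of the library totals, the nuclear ratio under ICOS WT was 0.12 and the mitochondrial ratio -0.34. Cytosolic ribosomal protein genes, which weigh on every CPM, summed to 322039 and 308946 CPM in the LN, against 380198 and 378826 CPM in the spleen; their part in the ratios was not tested. Tissue, challenge and library cannot be told apart, and in a library sum a shift in the mix of cells cannot be told apart from a change within cells. Sums of 3' tags count molecules captured, are not scaled by length, and are compared here between cells only.

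**Figure D1:**
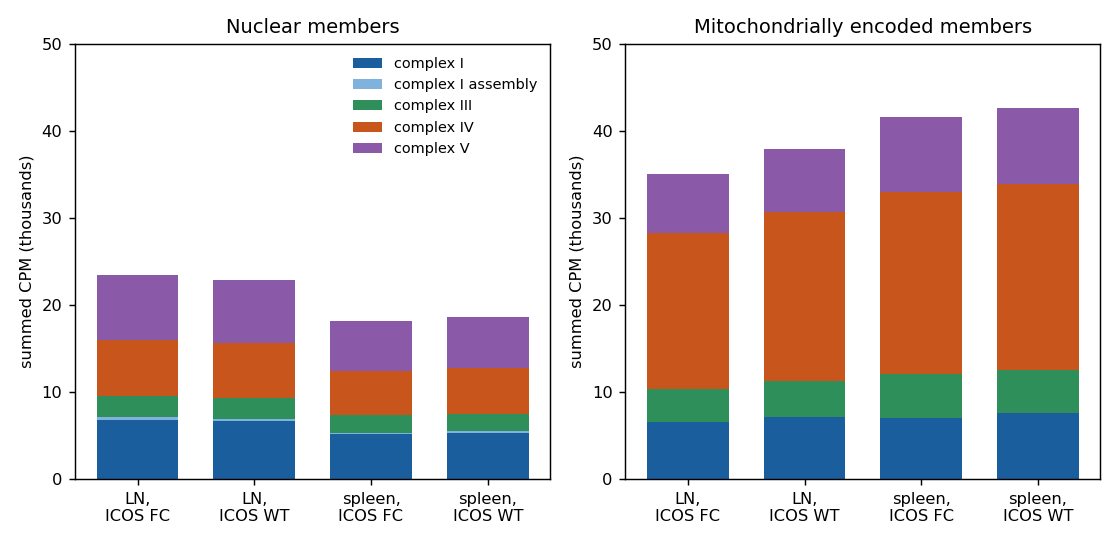
Summed CPM divided by 1000 of the nuclear members on the left and the mitochondrially encoded members on the right, stacked by complex, with 1 bar per library. Nuclear bars are 23419 and 22850 CPM for the LN, taller than 18227 and 18644 CPM for the spleen, while the mitochondrial bars run the other way.

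Gene by gene, a member was called higher or lower where its libraries differed by 1.2-fold or more, with an interval that left out equality and a level of 20 CPM or above in either; 75 nuclear and all 13 mitochondrially encoded members reached 20 CPM. In LN over spleen under ICOS FC, 53 members were higher, where 36.4% of all 5470 genes tested were, and 4 were lower, where 14.6% of genes were. Under ICOS WT, 50 members were higher and 3 lower, beside 34.5% and 10.2% of 5519 genes. The higher members were 49 and 46 nuclear genes, of which 44 were the same genes under both labels, and the same 4 mitochondrial genes under both. The median log2 ratio of the nuclear members was 0.38 and 0.31 under ICOS FC and ICOS WT, that of the mitochondrially encoded members -0.20 and -0.12, and that of all genes tested 0.13 and 0.13. Because the median gene was itself higher in the LN, the counts were also taken relative to it, where 25.8% and 22.3% of genes were higher and 23.9% and 19.1% lower under ICOS FC and ICOS WT. So centred, 36 nuclear members were higher and 4 lower under ICOS FC, and 26 and 2 under ICOS WT; of the mitochondrially encoded members 3 were higher under each label, and 8 and 6 were lower. At 1.5-fold, 17 and 11 nuclear members were higher under ICOS FC and ICOS WT, where 14.7% and 12.3% of genes were, and Cox7a2l was the only nuclear member lower under either, where 3.24% and 1.76% of genes were.

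**Figure D2:**
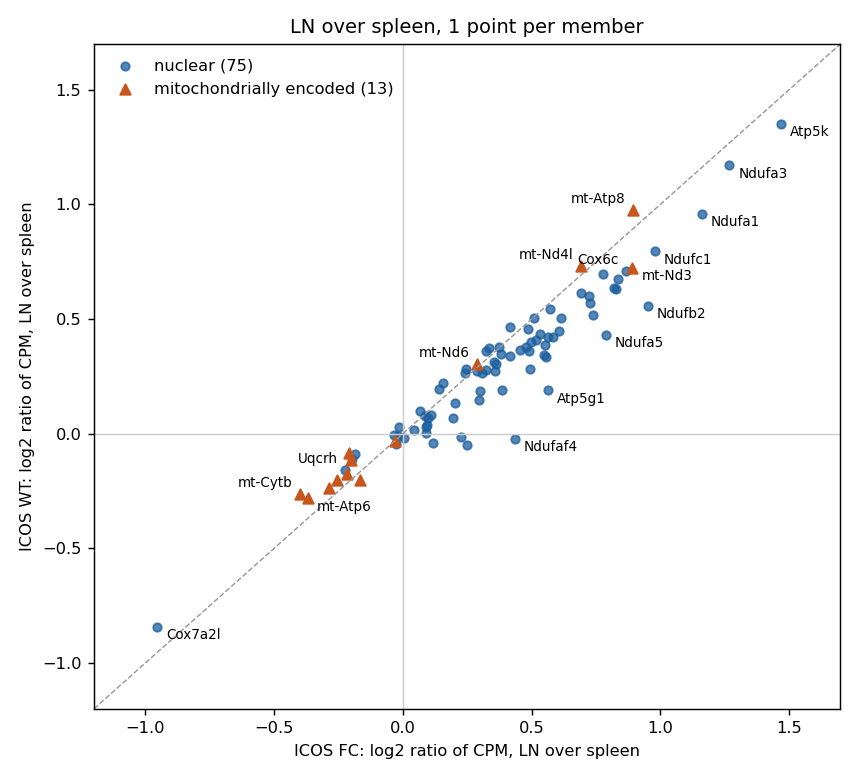
Log2 ratio of CPM, LN over spleen, under the label ICOS FC (horizontal) and ICOS WT (vertical) for the 88 members with at least 20 CPM; circles are nuclear and triangles mitochondrially encoded members, and the dashed line marks equal ratios. Atp5k stands highest at 1.47 and 1.35, Cox7a2l lowest at -0.95 and -0.84, and 4 of the 13 triangles lie clearly above 0.

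Among the nuclear genes of complex I, the entry point for electrons from NADH, accessory subunits supplied most of those called higher in the LN, where 36.4% and 34.5% of all genes tested were called higher under ICOS FC and ICOS WT. Of the 29 accessory subunits, 21 were higher under ICOS FC and 20 under ICOS WT, with median log2 ratios of 0.42 and 0.34. Of the 7 core subunits, 2 were higher under each label, with medians of 0.24 and 0.036, a count near the share of all genes; the difference between the 2 kinds was not tested. Ndufa3, an accessory subunit, had 386 and 410.3 CPM in the LN libraries labelled ICOS FC and ICOS WT, against 160.4 and 182 CPM in the spleen libraries labelled ICOS FC and ICOS WT. Both LN values lay above both spleen values, with log2 ratios of 1.27 [1.21, 1.32] and 1.17 [1.12, 1.23]. Ndufa1, an X-linked accessory subunit, had 269 and 268 CPM in the LN libraries labelled ICOS FC and ICOS WT, against 121 and 138 CPM in the spleen libraries labelled ICOS FC and ICOS WT, again without overlap (1.16 [1.097, 1.22] and 0.96 [0.90, 1.02]). The accessory subunits Ndufc1 and Ndufb2 had log2 ratios of 0.98 and 0.95 under ICOS FC and of 0.79 and 0.56 under ICOS WT. The core subunits called higher were Ndufs1 and Ndufs8 under ICOS FC and Ndufv2 and Ndufs8 under ICOS WT. Ndufv1, which helps form the NADH site, was near equality, at -0.035 under ICOS FC and -0.0073 under ICOS WT. Ndufb10, an accessory subunit of the membrane arm, was the other way, at 157 and 168 CPM in the LN, against 179.9 and 182 CPM in the spleen, under 1.2-fold. All 4 assembly factors with at least 20 CPM were higher under ICOS FC (Ndufaf2, Ndufaf3, Ndufaf4 and Ndufaf8), and 3 of them under ICOS WT, where Ndufaf4 had -0.021 [-0.16, 0.11].

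In complex III, which passes electrons from ubiquinol to cytochrome c, 5 of 8 nuclear genes were higher in the LN under each label. Of all genes tested, 36.4% and 34.5% were higher under ICOS FC and ICOS WT. The 5 were small subunits or a core protein, not the iron-sulfur protein, and no difference between these kinds was tested. Uqcr11 had 288 and 260.2 CPM in the LN libraries labelled ICOS FC and ICOS WT, against 161 and 163 CPM in the spleen libraries labelled ICOS FC and ICOS WT. Its log2 ratios were 0.84 [0.78, 0.89] and 0.68 [0.61, 0.74], and those of the small subunits Uqcrq and Uqcr10 were 0.83 and 0.82 under ICOS FC and 0.63 and 0.63 under ICOS WT. Uqcrfs1, the Rieske iron-sulfur protein, had 0.12 [0.041, 0.19] and -0.043 [-0.12, 0.039]. The hinge protein gene Uqcrh was lower in the LN by less than 1.2-fold, at 753 and 791 CPM in the LN libraries labelled ICOS FC and ICOS WT, against 879 and 882 CPM in the spleen. The mitochondrial partner of this complex, mt-Cytb (cytochrome b), was called lower under both labels, with 3785 and 4165 CPM in the LN, against 4993 and 5003 CPM in the spleen (-0.40 [-0.41, -0.39] and -0.26 [-0.28, -0.25]). Nuclear and mitochondrial parts of complex III thus moved apart, at summed log2 ratios of 0.29 against -0.40 under ICOS FC and 0.22 against -0.26 under ICOS WT.

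In complex IV, cytochrome c oxidase, 10 of the 12 nuclear genes with at least 20 CPM were higher in the LN under each label. Among all genes tested, 36.4% and 34.5% were higher under ICOS FC and ICOS WT. The 3 mitochondrially encoded catalytic subunits were lower by less than 1.2-fold. Cox6c had 807 and 776 CPM in the LN libraries labelled ICOS FC and ICOS WT, against 443 and 475 CPM in the spleen libraries labelled ICOS FC and ICOS WT, with no overlap (0.87 [0.83, 0.90] and 0.71 [0.67, 0.75]). Cox7c had log2 ratios of 0.78 and 0.70, Cox7a2 0.69 and 0.62, Cox5a 0.58 and 0.42, and Ndufa4, a complex IV subunit despite its name, 0.53 and 0.43. Cox4i1, the common form of subunit IV, was the exception on the low side besides Cox7a2l, with 762 and 805 CPM in the LN, against 867 and 855 CPM in the spleen (-0.18 [-0.22, -0.15] and -0.087 [-0.12, -0.055]). Cox7a2l, a paralog of Cox7a2, had 365 and 381 CPM in the LN libraries labelled ICOS FC and ICOS WT. In the spleen libraries labelled ICOS FC and ICOS WT it had 707 and 684 CPM. Both LN values lay far below both spleen values (-0.95 [-0.995, -0.91] and -0.84 [-0.88, -0.80]), the lowest ratio of any member under either label. The catalytic subunits mt-Co1, mt-Co2 and mt-Co3 had -0.21, -0.20 and -0.26 under ICOS FC and -0.085, -0.12 and -0.20 under ICOS WT, although mt-Co1 under ICOS WT ranged from -0.26 to 0.015 over the other settings. Forms known from heart, muscle, lung or testis were almost absent: Cox8b, Cox8c, Cox7b2 and Ndufa4l2 had 0 UMIs in every library, which allows up to 0.173 and 0.199 CPM in the LN and 0.106 and 0.110 CPM in the spleen at 3 counts a library. Cox6a2, Cox4i2, Cox7a1 and Cox6b2 had at most 2, 9, 19 and 37 UMIs in any library. Their common partners Cox6a1, Cox6b1, Cox7a2 and Cox8a were at 289, 508, 439.9 and 721 CPM in the LN library labelled ICOS FC.

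In complex V, the proton-driven ATP synthase, 7 and 6 of the 15 nuclear genes with at least 20 CPM were called higher in the LN under ICOS FC and ICOS WT, not far from the 36.4% and 34.5% of all genes, and none lower. Those called under both labels were Atp5k, Atp5j2, Atp5e, Atp5g3, Atp5j and Atp5l, of membrane and stalk subunits, and no difference between these and the catalytic head was tested. Atp5k, subunit e of the membrane part where synthase dimers meet, had 392 and 397 CPM in the LN libraries labelled ICOS FC and ICOS WT, against 142 and 155 CPM in the spleen libraries labelled ICOS FC and ICOS WT. Its log2 ratios of 1.47 [1.41, 1.53] and 1.35 [1.296, 1.41] were the highest of all members under both labels. The membrane subunit Atp5j2 had 0.73 and 0.57, and Atp5e, the epsilon subunit of the central stalk, 0.72 and 0.60. The head genes Atp5a1 and Atp5b, alpha and beta, had 0.089 and 0.20 under ICOS FC and 0.0012 and 0.068 under ICOS WT. The paralogs Atp5g1, Atp5g2 and Atp5g3 encode the same mature c subunit of the rotor, and they did not move alike. Atp5g1 had 409.9 and 335 CPM in the LN libraries labelled ICOS FC and ICOS WT, against 277 and 294 CPM in the spleen libraries labelled ICOS FC and ICOS WT, and Atp5g2 had 606 and 593 CPM in the LN libraries labelled ICOS FC and ICOS WT, against 605 and 601 CPM in the spleen libraries labelled ICOS FC and ICOS WT. Atp5g1 was thus higher in the LN mainly under ICOS FC (0.56 [0.52, 0.61] against 0.19 [0.14, 0.24] under ICOS WT), Atp5g3 had 0.55 and 0.34, and Atp5g2 was level (0.0033 [-0.032, 0.038] and -0.020 [-0.057, 0.018]). The tables hold 2 rows named Atp5o; 1 had 0 UMIs in every library and the other 273, 263, 253 and 249 CPM in LN ICOS FC, LN ICOS WT, spleen ICOS FC and spleen ICOS WT, and since GENCODE M21 has 2 genes of that name the rows are uncertain.

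The 13 mitochondrially encoded members did not move alike, also within complexes I and V. Of the 13, 4 were called higher in the LN under both labels, all of them short or read from the light strand. As a share this was not above the 36.4% and 34.5% of all genes called higher under ICOS FC and ICOS WT. mt-Nd3 had 745 and 772 CPM in the LN libraries labelled ICOS FC and ICOS WT, against 402 and 467 CPM in the spleen libraries labelled ICOS FC and ICOS WT. mt-Nd4l had log2 ratios of 0.69 [0.63, 0.75] and 0.73 [0.66, 0.80], mt-Atp8 0.89 [0.80, 0.99] and 0.97 [0.88, 1.07], and mt-Nd6, the only member read from the light strand, 0.29 [0.15, 0.42] and 0.30 [0.16, 0.44]. These 4 held few of the mitochondrial UMIs, and the other members most of them. mt-Atp6 was called lower, with 6655 and 7137 CPM in the LN, against 8598 and 8680.4 CPM in the spleen (-0.37 [-0.38, -0.36] and -0.28 [-0.29, -0.27]), and mt-Nd4 was lower under ICOS FC at -0.29 and had -0.24 under ICOS WT. mt-Nd5, the longest mitochondrially encoded member, was level (-0.032 [-0.076, 0.013] and -0.031 [-0.078, 0.016]). mt-Atp8 overlaps mt-Atp6, and mt-Nd4l adjoins and overlaps mt-Nd4, and each pair is carried on 1 message in mammals, so the counting could split their reads and the opposite directions within each pair are uncertain. Among cells with a Foxp3 UMI the mt-Nd6 ratio under ICOS FC was -0.011.

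Annotated transcript length moved with the tissue ratio of the nuclear members. The length used was the median over all protein-coding transcripts annotated for a gene. It can differ from the length of the messages captured here, which was not measured. Over the 74 nuclear members with at least 20 CPM and a GENCODE M21 length, Spearman's rho between median transcript length and the LN over spleen log2 ratio was -0.43 under ICOS FC and -0.52 under ICOS WT; the genes share libraries and depth and are not independent. The 26 members of 400 to 599 bases had median log2 ratios of 0.52 and 0.42, the 19 of 800 to 1199 bases 0.22 and 0.13. For all other genes rho was -0.084 and -0.033, and genes of 400 to 599 bases among them had medians of 0.18 and 0.20. Cytosolic ribosomal protein genes, short as well, had rho of -0.42 and -0.43, with the 7 under 400 bases higher in the LN (medians 0.48 and 0.43) and the 24 of 800 to 1199 bases lower (-0.42 and -0.46). Annotated length thus moved with the ratio in both of these gene groups, and the part of length in the tissue difference was not tested. Cox7a2l, of 1102.5 bases, and Uqcrh, of 474.5 bases, were lower than other members near their length.

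**Figure D3:**
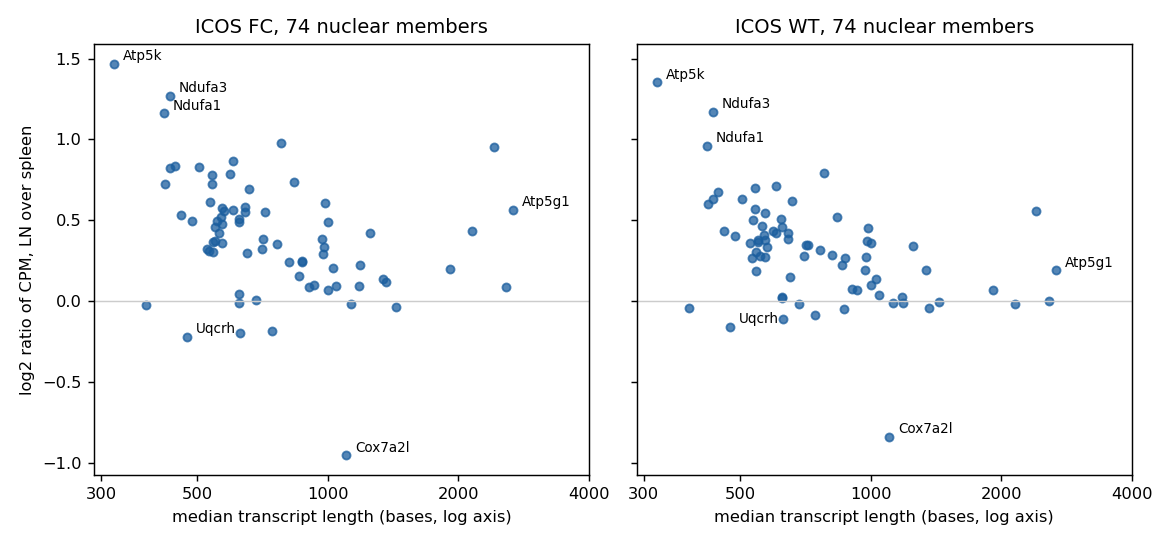
Log2 ratio of CPM, LN over spleen, against median transcript length in bases (log axis) for 74 nuclear members, under ICOS FC on the left and ICOS WT on the right, 1 point per gene. The shortest labelled members, Atp5k, Ndufa3 and Ndufa1, are the highest, and Cox7a2l lies apart at -0.95 and -0.84.

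Other genes of the same pathways, taken from lists written by hand, differed in how many were called higher in the LN, beside 36.4% and 34.5% of all genes under ICOS FC and ICOS WT. Complex II, which feeds electrons from succinate, had 3 and 2 of 4 genes higher in the LN under ICOS FC and ICOS WT, with Sdhb, its iron-sulfur subunit, at 0.51 under both labels and Sdhd, a membrane anchor, at 0.60 and 0.30. Cycs, the mobile carrier cytochrome c, had log2 ratios of 0.92 and 0.66, and Cyc1, cytochrome c1, 0.46 and 0.21, the last under 1.2-fold. Of the 20 assembly factors outside the member prefixes with at least 20 CPM, 7 and 6 were higher and 2 lower under each label; the highest was Cox17, a copper chaperone of complex IV, at 1.81 and 1.69. Of 73 mitochondrial ribosomal protein genes, which build the ribosomes that translate the 13 mitochondrial messages, 35 and 29 were higher and 0 and 1 lower. Genes that handle mitochondrial RNA divided, with 4 higher and 2 lower of 10 under ICOS FC and 4 higher and 3 lower of 11 under ICOS WT; Slirp, which stabilises mitochondrial messages, had 1.14 and 1.03. Citric acid cycle genes had 5 and 4 of 13 higher and none lower, and these, the assembly factors and the RNA-handling genes were near the share of all genes. Glycolysis genes had 9 of 14 and 9 of 13 higher, with 1 lower under ICOS FC, and Tpi1, triosephosphate isomerase, had 1.28 and 1.42. Of 5 nuclear regulators, 2 were higher under each label and 2 and 1 lower, and of 8 carriers, uncouplers and inhibitors 5 and 4 were higher and none lower. Myc, a factor that drives growth genes, had 1.24 under ICOS FC and 0.53 under ICOS WT.

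Between the labels within the spleen, members differed little. Both genomes were slightly lower in sum under ICOS FC: nuclear members summed to 18227 CPM under ICOS FC and 18644 CPM under ICOS WT (-0.033 [-0.038, -0.027]), and mitochondrially encoded members to 41611 and 42672 CPM (-0.036 [-0.040, -0.033]). The median log2 ratios were -0.029 for nuclear and -0.015 for mitochondrially encoded members, beside -0.022 for all 5105 genes tested. No member was called higher, where 2.92% of genes were, and 1 was called lower, where 3.19% were. The member called lower was Ndufb2, an accessory subunit of complex I, at 62.6 CPM under ICOS FC and 75.2 CPM under ICOS WT (-0.27 [-0.36, -0.17]). Short of 1.2-fold, the accessory subunits Ndufa3, Ndufa1, Ndufa5 and Ndufv3 had -0.18, -0.19, -0.19 and -0.15, Ndufaf4 -0.19 and Atp5e -0.12. In all, 3 nuclear members had intervals above equality and 26 below, where 15.3% and 23.1% of genes did. The 3 above were Ndufab1, the mitochondrial acyl carrier protein, at 0.10 [0.028, 0.17], Cox7a2l at 0.048 [0.019, 0.077] and Atp5d, the delta subunit of the synthase stalk, at 0.041 [0.0016, 0.081]. Among the mitochondrially encoded members, mt-Nd3 and mt-Nd1 were lowest, at -0.22 [-0.25, -0.18] and -0.19 [-0.21, -0.17], both short of 1.2-fold, and mt-Nd4l was the only one with an interval above equality (0.10 [0.033, 0.16]).

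In the LN the genomes parted between the labels, by small amounts. Nuclear members summed to 23419 CPM under ICOS FC and 22850 CPM under ICOS WT (0.035 [0.029, 0.042]), while the mitochondrially encoded members summed to 35050.2 and 37931 CPM (-0.11 [-0.12, -0.11]). With all LN clusters weighted equally the nuclear ratio was -0.0053 and the mitochondrial ratio -0.049, so the nuclear ratio changed sign with the weight given to clusters. Of the 75 nuclear members, 30 had intervals above equality and 7 below, where 20.4% and 27.7% of 5506 genes did; of the 13 mitochondrially encoded members, 0 were above and 9 below. The median log2 ratios were 0.048 for nuclear and -0.10 for mitochondrially encoded members, beside -0.032 for all genes. At 1.2-fold, 2 members were called higher, where 7.79% of genes were, and 0 lower, where 10.8% were. Atp5g1, the c subunit gene, was at 409.9 CPM under ICOS FC and 335 CPM under ICOS WT (0.29 [0.24, 0.34]), and Ndufaf4, the assembly factor, at 54.4 and 45.1 CPM (0.27 [0.13, 0.41]). With clusters weighted equally neither was called. Close behind were the accessory subunits Ndufc2, Ndufab1 and Ndufa12 at 0.26, 0.26 and 0.18, and the core subunit Ndufs7 at 0.20. Low nuclear members were Cox4i1 at -0.079 [-0.11, -0.043], Ndufa3 at -0.086 [-0.14, -0.036], Uqcrh at -0.071 [-0.11, -0.035] and Ndufb10 at -0.10 [-0.18, -0.020], all short of 1.2-fold, followed by Cox7a2l at -0.065 and Atp5l at -0.050. The lowest mitochondrially encoded members were mt-Co1 at -0.17 [-0.18, -0.16], mt-Nd1 at -0.15 [-0.18, -0.13] and mt-Cytb at -0.14 [-0.15, -0.12]. Over the other settings Ndufb10 reached 0.0074 and Cox7a2l 0.020. In the lists, Cycs and Cyc1 had 0.23 in sum, Myc had 0.57, and 7 of 73 mitochondrial ribosomal protein genes were higher and none lower. LN cells labelled ICOS FC also held a larger share of cluster 4, described next, at 10.5% of cells against 7.27% under ICOS WT, and a smaller share of cluster 2, at 10.7% against 20.6%.

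Within the deposited clusters, ratios between the labels were small for the nuclear members, and the mitochondrial sum was the lower under ICOS FC in most. In the 6 spleen clusters with at least 50 cells of each library, the nuclear log2 ratio of ICOS FC over ICOS WT ran from -0.072 [-0.085, -0.059] in cluster 1 to 0.0018 [-0.017, 0.020] in cluster 3. In LN clusters 0 to 5 it ran from -0.017 [-0.034, -0.000018] in cluster 1 to 0.033 [0.014, 0.053] in cluster 2, and only the small clusters went further, to -0.32 [-0.40, -0.24] in cluster 6 and 0.12 [0.081, 0.15] in cluster 7. The mitochondrial ratio was below equality, with an interval clear of it, in 5 of the 6 spleen clusters and in 7 of the 8 LN clusters. It was widest in LN cluster 5 at -0.21 [-0.23, -0.19], cluster 7 at -0.17 [-0.19, -0.14] and cluster 2 at -0.13 [-0.15, -0.12], and it was -0.015 [-0.029, -0.0015] in cluster 4. Spleen cluster 2 was level at -0.00017 [-0.0094, 0.0090], and LN cluster 6 went the other way at 0.13 [0.10, 0.16].

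Clusters spanned a wider range than labels did on both genomes. The clusters were made by the authors from the same cells and genes, so a cluster against the remaining cells of its library is a description, without a test. LN cluster 4, led by the folate enzyme gene Shmt1, the hexokinase gene Hk2 and the polyamine gene Srm, had the highest nuclear level: 27688 and 27649 CPM under ICOS FC and ICOS WT, against 22312 and 21977 CPM in the remaining LN cells. Its mitochondrially encoded sum was the lowest of any cluster, at 29433 and 29748 CPM, against 36506 and 39419.6 CPM in the remaining cells. Nuclear UMIs per mitochondrial UMI thus stood at 0.941 and 0.929, where the other LN clusters with at least 50 cells held between 0.161 and 0.744. Of the 75 nuclear members with at least 20 CPM in a whole library, 50 and 51 were higher in the cluster, beside 39.7% and 37.4% of genes under ICOS FC and ICOS WT, and 49 were higher in both libraries. Under ICOS FC and ICOS WT, 3 and 4 nuclear members were lower, beside 29.8% and 32% of genes, and Cox7a2l, Ndufa6 and Uqcrh were lower in both; 7 mitochondrially encoded members were lower in both and 0 higher. Left out of these counts are Ndufaf1, Ndufaf6 and Ndufaf7, which were under 20 CPM in each whole library. Among the 75, Ndufaf4, the complex I assembly factor, was highest, with 117 and 125 CPM in its cells labelled ICOS FC and ICOS WT, against 38.2 and 30.6 CPM in the remaining LN cells (log2 ratios 1.61 and 2.03). Atp5g1 had 821 and 742 CPM in its cells labelled ICOS FC and ICOS WT, against 303 and 261 CPM in the remaining LN cells (log2 ratios 1.44 and 1.51). These were far above the cluster's nuclear sum ratio of 0.31 and 0.33. The acyl carrier protein gene Ndufab1 and the accessory subunit Ndufa12 followed, at log2 ratios of 1.27 and 1.14 under ICOS FC and 1.45 and 1.26 under ICOS WT. mt-Co1 went furthest down among the abundant mitochondrial messages, with 4588 and 4554 CPM in its cells labelled ICOS FC and ICOS WT, against 6492 and 7269.9 CPM in the remaining LN cells (log2 ratios -0.50 and -0.67). The median UMIs per cell of this cluster, 12166 and 13388, were the highest of all clusters, and its markers of dividing cells summed to 2833 and 2512 CPM, against 2174 and 1615 CPM over all LN cells.

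**Figure D4:**
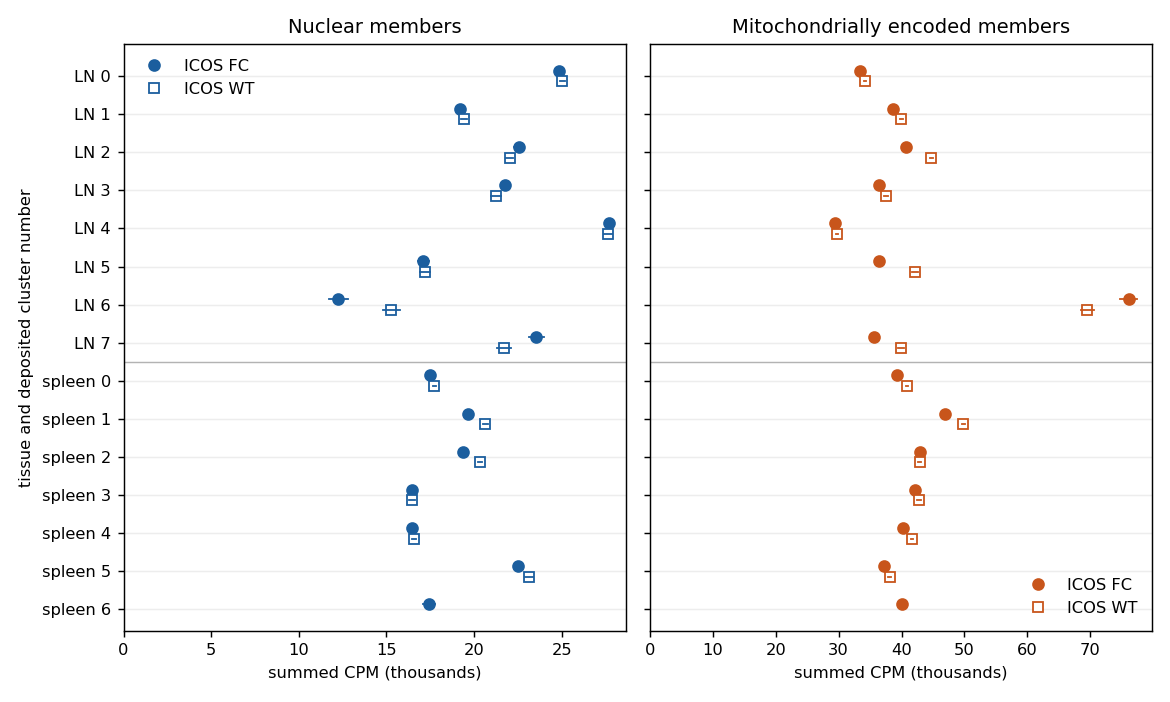
Summed CPM divided by 1000 of the nuclear members on the left and the mitochondrially encoded members on the right for each deposited cluster, LN above spleen; filled circles are ICOS FC, open squares ICOS WT, lines are 95% counting intervals, and groups under 50 cells are left out. LN cluster 4 lies farthest right for nuclear members (27688 and 27649 CPM), and LN cluster 6 lies apart with the lowest nuclear and the highest mitochondrial sums.

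Spleen cluster 5, led by the immediate-early genes Nr4a1, Nr4a3 and Egr3 and by Ccl3 and Ccl4, had the same 4 nuclear members at the top of its ratios as LN cluster 4. Its nuclear members summed to 22482 and 23149 CPM under ICOS FC and ICOS WT, against 17959 and 18354 CPM in the remaining spleen cells, and its mitochondrially encoded members to 37266 and 38106 CPM, against 41885 and 42966 CPM. Under ICOS FC and ICOS WT, 49 and 48 of the same 75 nuclear members were higher, beside 31.7% and 30.8% of genes, and 3 and 2 were lower, beside 23.3% and 23%; 44 were higher and Cox7a2l and Ndufa6 lower in both libraries. Atp5g1 had 655 and 676 CPM in its cells labelled ICOS FC and ICOS WT, against 253 and 269 CPM in the remaining spleen cells (log2 ratios 1.37 and 1.33). Ndufaf4 had 85.4 and 111 CPM in its cells labelled ICOS FC and ICOS WT, against 37.4 and 41.6 CPM in the remaining spleen cells (log2 ratios 1.19 and 1.41). The leading members of LN cluster 4, Ndufaf4, Atp5g1, Ndufab1 and Ndufa12, were thus also the 4 with the highest mean ratios here, with Atp5g1 first, and Cox7a2l was lowest in both clusters. Median UMIs per cell were 5923 and 7186, above the other spleen clusters. Among cells of 4000 to 8000 UMIs, its nuclear sums were 20678 and 19914 CPM, against 17238 and 17698 CPM in cluster 0, and cluster 1 had 19639.9 and 20857 CPM and cluster 2 19539 and 19996 CPM. At that depth cluster 5 was thus above clusters 1 and 2 under ICOS FC and below both under ICOS WT. LN cluster 4 held fewer than 50 cells a library in that range, so the same could not be given for it.

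**Figure D5:**
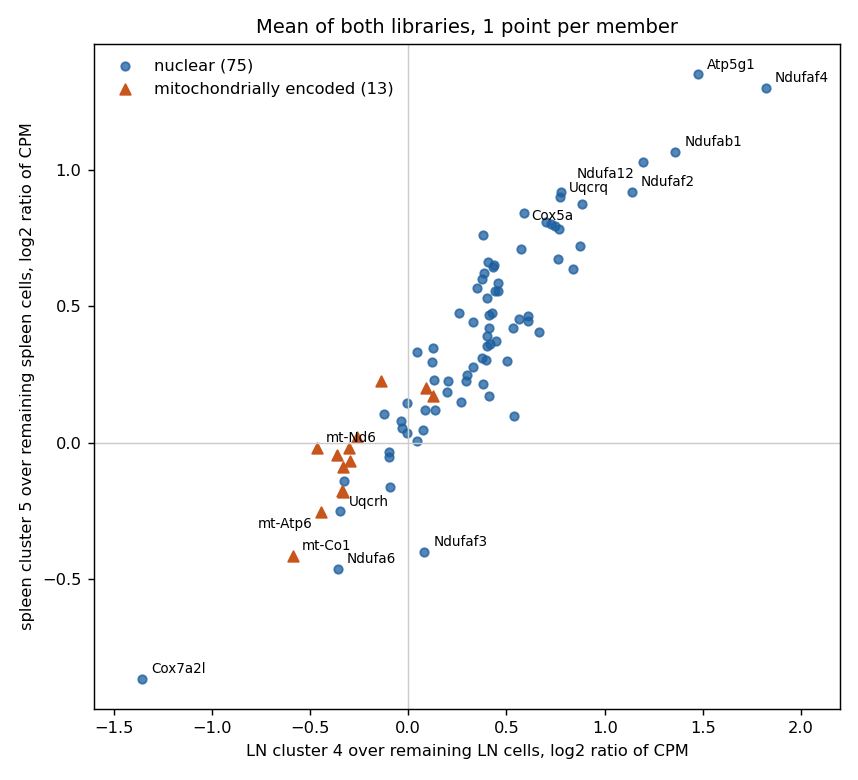
Log2 ratio of CPM in LN cluster 4 over the remaining LN cells (horizontal) and in spleen cluster 5 over the remaining spleen cells (vertical), each the mean of the libraries labelled ICOS FC and ICOS WT, for 75 nuclear (circles) and 13 mitochondrially encoded (triangles) members with at least 20 CPM. Ndufaf4 and Atp5g1 stand at the top right, Cox7a2l at the bottom left, and most triangles lie at or below 0 in both.

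Outside LN cluster 6, the lowest nuclear sums of the LN were those of clusters 5 and 1, and the lowest of the spleen those of clusters 3 and 4. LN cluster 5, interferon response-like, had nuclear sums of 17103 and 17177 CPM under ICOS FC and ICOS WT, against 23673 and 23176 CPM in the remaining LN cells; 58 and 54 nuclear members were lower, beside 37.2% and 40.3% of genes, and only Cox7a2l was higher in both libraries, where 9.75% and 9.02% of genes were higher. Its mitochondrially encoded sums, 36401 and 42112 CPM, were above 34996 and 37690.2 CPM in the remaining cells. Uqcr10, a small subunit of complex III, had low ratios in both libraries, with 146 and 136 CPM in its cells labelled ICOS FC and ICOS WT, against 339.6 and 332 CPM in the remaining LN cells (log2 ratios -1.21 and -1.29). LN cluster 1, resting Treg-like by Igfbp4 and Bcl2, had nuclear sums of 19197 and 19426 CPM, against 24235 and 23666 CPM, with 53 and 51 members lower, beside 50.9% and 49.9% of genes. In the spleen, clusters 3, led by Sox4 and Satb1, and 4, low in Foxp3 and led by Dapl1 and Igfbp4, had 16469 and 16448 CPM and 16449.8 and 16555 CPM; 33 and 30 nuclear members were lower in cluster 3, beside 26.9% and 21.7% of genes, and 24 and 27 in cluster 4, beside 30.8% and 33.5%. In both, the mitochondrially encoded sums stayed near those of the remaining cells, at log2 ratios between -0.053 and 0.018. Cytosolic ribosomal protein genes held 419811 and 410726 CPM of LN cluster 5 and 434257 and 434941 CPM of spleen cluster 4, against 287803 and 291139 CPM of LN cluster 4; their part in these CPM differences was not tested.

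The follicular Treg-like clusters had the highest mitochondrially encoded sums of their tissue outside LN cluster 6. Spleen cluster 1 (Sostdc1, Tox2, Pdcd1) had 46852 and 49808 CPM under ICOS FC and ICOS WT, against 40414 and 41397 CPM in the remaining spleen cells, and LN cluster 2 (Tox2, Pdcd1, Cxcr5) had 40758 and 44751 CPM, against 34504 and 36499 CPM in the remaining LN cells. Nuclear members were higher in sum in spleen cluster 1, at 19633 and 20642 CPM against 17906 and 18287 CPM. They were lower in LN cluster 2, at 22540.2 and 22024 CPM against 23503 and 23023 CPM. In spleen cluster 1, 17 of 75 and 26 of 77 nuclear members were called higher under ICOS FC and ICOS WT. These were smaller shares than the 37.2% and 44.6% of all genes called higher. The 77 include members under 20 CPM in each whole spleen library, so the count of 26 may exceed that among the 75. Of the 75 tested in both libraries, 15 were called higher in both. Set side by side over cells of all depths, follicular Treg-like cells had more nuclear and less mitochondrial message in the LN under both labels. The whole libraries differed from the spleen in the same directions. The effector Treg-like clusters did likewise: LN cluster 0 had 24838 and 25027 CPM nuclear and 33381 and 34225 CPM mitochondrial, against 19377 and 20333 CPM and 42864 and 42869 CPM in spleen cluster 2. In the UMI range used for spleen cluster 5, LN cluster 2 had 20218 and 20566 CPM nuclear under ICOS FC and ICOS WT. Spleen cluster 1 had 19639.9 and 20857 CPM there. The follicular nuclear direction thus held under ICOS FC only. The follicular mitochondrial direction held under both labels, at 43409 and 45594 CPM against 46643 and 49363 CPM. The effector Treg-like clusters kept both directions in that range, with 22308 and 21812 CPM nuclear against 19539 and 19995.5 CPM. The clusters were numbered apart in each tissue, and their names rest on few markers. Within LN cluster 0, 15 and 24 of 75 nuclear members were higher, beside 38.9% and 38.1% of genes, and 15 were higher in both libraries. Lower were 8 and 7 members, beside 16.2% and 15.4% of genes. All these were smaller shares than those of all genes. The 5 lower in both libraries were Atp5g1, Ndufa5, Ndufab1, Ndufaf2 and Ndufaf4.

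LN cluster 6 stood apart on both genomes. Its nuclear members summed to 12239 and 15258 CPM under ICOS FC and ICOS WT, against 23524 and 22978 CPM in the remaining LN cells, and its mitochondrially encoded members to 76121 and 69540.4 CPM, against 34666 and 37400.1 CPM. All 13 mitochondrially encoded members were higher in each library, beside 34.7% and 38.9% of genes. Of 75 nuclear members, 55 and 44 were lower, beside 8.41% and 7.27% of genes, and 41 were lower in both libraries. The log2 ratios of the mitochondrial members ran from 1.003 for mt-Nd5 to 1.41 for mt-Nd4l under ICOS FC and from 0.59 for mt-Nd5 to 1.12 for mt-Nd4l under ICOS WT. These cells were shallow, with medians of 1788 and 2022 UMIs, and 38 of the 179 lay above 9% mitochondrial counts, close to the limit of the deposited tables. The genes leading the cluster, H2-Eb1, H2-Ab1, H2-Aa, Kif15 and Mki67, include those of antigen-presenting cells, whose part was not tested. Over both libraries its cells also held Foxp3 at 144 CPM, the highest of any cluster, and Icos at 838 CPM. Cytosolic ribosomal protein genes were at only 166266 and 152427 CPM in the cluster, the lowest of any cluster, and their part was not tested. Without spleen cluster 4 and LN clusters 6 and 7, an alternative added after the data were seen, the LN over spleen ratio was 0.35 for the nuclear and -0.27 for the mitochondrial sum under ICOS FC and 0.28 and -0.20 under ICOS WT.

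Toward either end of the nuclear range Cox7a2l ran the other way in several clusters. In LN cluster 6 both were low (Cox7a2l 199 and 173 CPM). Cox7a2l was at 162 and 166 CPM under ICOS FC and ICOS WT in LN cluster 4, where the nuclear sum was highest. It was at 563 and 511 CPM in LN cluster 5 and 577 and 529 CPM in LN cluster 1, where the nuclear sum was among the lowest. In the spleen Cox7a2l was at 406 and 380.0 CPM in cluster 5 and at 923 and 856 CPM in cluster 3. Spleen cluster 4 had a nuclear sum as low as cluster 3, but Cox7a2l was not called higher there in either library. Under each label the Cox7a2l level in every LN cluster was below that in every spleen cluster other than 5. The closest were LN cluster 1 and spleen cluster 1, which had 582 and 562 CPM. Its paralog Cox7a2, the subunit of complex IV itself, was higher in the LN at 0.69 and 0.62.

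Depth moved with both genomes in the LN. With each library's cells ordered by UMIs and divided into 4 groups of equal size, nuclear UMIs per mitochondrial UMI were 0.417, 0.540, 0.568 and 0.866 from the shallowest to the deepest LN cells labelled ICOS FC, and 0.395, 0.495, 0.517 and 0.773 under ICOS WT. In the spleen the same ratio ran from 0.406 to 0.462 and from 0.395 to 0.467. The step was largest at the deepest LN group, where median UMIs were 12639 and 12096, close to the medians of LN cluster 4. By the deposited phase calls, LN cells called G2M had nuclear sums of 27636 and 27149.7 CPM, against 21419 and 21433 CPM in G1, and mitochondrial sums of 30456 and 33839.6 CPM, against 36856 and 39549 CPM. Mki67, a proliferation marker, was at 559.6 and 442 CPM in those 87 and 70 cells, against 8.28 and 9.81 CPM in G1. In the spleen, G2M calls went with nuclear sums of 18382 and 19149 CPM, against 18004 and 18381 CPM in G1, and Mki67 was only at 70.5 and 32.8 CPM. Across single cells, the nuclear members made up 1.31% to 3.13% of UMIs in the middle of the distribution (5th to 95th percentile) of LN cells labelled ICOS FC, and 1.33% to 3.14% under ICOS WT, against 1.29% to 2.44% and 1.32% to 2.53% in the spleen. Markers of other cells differed in level: erythroid markers summed to at most 1.84 CPM in a library and platelet markers to at most 0.425 CPM. B cell markers summed to 198 and 164 CPM in the LN under ICOS FC and ICOS WT, against 76.7 and 73.3 CPM in the spleen. Myeloid markers had 165 and 150 CPM against 132 and 119 CPM, and plasma cell markers 104 and 85.5 CPM against 46.8 and 50.5 CPM. The other way went CD8 T or NK cell markers, at 127 and 196 CPM against 256 and 214 CPM. So did conventional CD4 T cell markers, at 462 and 573 CPM against 694 and 761 CPM. The part of these cells in the tissue difference was not tested.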

How the data were processed

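Cells of 4 libraries were analysed, 1 library per group, so no model was fitted and no p-value is given. Reads were processed with Cell Ranger 4.0.0, R 3.6.1 and Seurat 3.0 on GRCm38.p6/mm10, per the submitters' processing notes. The authors deposited 1 expression table per tissue as the natural log of 1 plus UMIs per 10000, with cluster and phase calls, UMI counts per cell and the percent of mitochondrial counts per cell. The sources at hand do not state the authors' filters on cells or their treatment of doublets, and no doublet caller was run here. Cells called KO and Control in the deposited metadata were taken as ICOS FC and ICOS WT by the meaning of those words alone. UMI counts were recovered from the deposited values: 100% came out whole within 0.001, and every cell's total equalled the deposited count.

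Counts were summed per library, or per cluster and library, and scaled to CPM. Ratios carry exact conditional Poisson intervals at 95%, which cover counting error only. Calls needed 20 CPM in either sum, 1.2-fold (or 1.5-fold) and an interval clear of equality. Clusters needed 50 cells per library, and they were named from marker lists. The interval and call steps were tested on simulated data. The members, lists, comparisons and named genes were chosen with earlier results of these data known. Named were all mitochondrially encoded members, in each comparison up to 6 highest and 6 lowest nuclear members by the interval bound nearest equality, among those whose interval left out equality, members past 1.5-fold, paralog sets and the top 2 of each pathway list; others, such as Ndufv1, Uqcrfs1, Atp5a1 and Atp5b, were added for their role after their values were seen. The values of 1 member are not reported here. Promoter windows came from RefSeq (GRCm38.p6) and transcript lengths from GENCODE M21. Alternatives were other scalings, no minimum CPM, equal weight per cell or per cluster, thinning to 2000 UMIs (which left out 59 and 69 LN cells and 155 and 89 spleen cells labelled ICOS FC and ICOS WT), and subsets of cells. Python 3.11.15, numpy 2.4.6, scipy 1.17.1, pandas 2.3.3 and matplotlib 3.10.9 were used.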

Additional observations from a re-analysis of the deposited data

Results flagged for a closer look

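The difference between the labels had opposite signs in the LN and the spleen for Ndufaf4, an assembly factor of complex I. Its level was 54.4 CPM under ICOS FC and 45.1 CPM under ICOS WT in the LN, and 40.3 CPM under ICOS FC and 45.8 CPM under ICOS WT in the spleen. The log2 ratio of ICOS FC over ICOS WT was thus 0.27 [0.13, 0.41] in the LN and -0.19 [-0.30, -0.068] in the spleen, a difference of 0.46. Ndufa5, an accessory subunit of complex I, showed the same opposition. It was at 175 and 157 CPM under ICOS FC and ICOS WT in the LN, against 102 and 116 CPM in the spleen. Its log2 ratios were 0.16 [0.086, 0.24] in the LN and -0.19 [-0.27, -0.12] in the spleen, which differ by 0.36. With 1 library per group neither difference was tested. In all, 13 of the 88 members with at least 20 CPM had counting intervals on opposite sides of equality in the 2 tissues. Ndufaf4 and Ndufa5 were those among them at 1.1-fold or more in both. The share of all genes with such intervals was not counted, so the 13 cannot be set against other genes.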

How the results depend on the processing

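The sign of the LN over spleen ratio was the same under every alternative run for the nuclear sum, between 0.21 and 0.39 under ICOS FC and 0.12 and 0.33 under ICOS WT, and for the mitochondrially encoded sum, between -0.40 and -0.13 and between -0.34 and -0.083. In the LN, the nuclear sum of ICOS FC over ICOS WT reversed to -0.0053 with clusters weighted equally. The mt-Nd6 ratio of LN over spleen under ICOS FC reversed to -0.011 in cells with a Foxp3 UMI. The causes were not tested.

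Counts of called members moved as follows. In the spleen, members lower under ICOS FC numbered 1, but 0 with median-of-ratios scaling, with each cell given equal weight, with cells thinned to 2000 UMIs and without the 5% of cells with most UMIs, and 2 without the CPM minimum or among cells holding a Foxp3 UMI. In the LN, members higher under ICOS FC numbered 2, but 4 with median-of-ratios scaling, with totals lacking mitochondrially encoded and ribosomal protein genes and with no minimum CPM, 1 with each cell given equal weight, in cells under 5% mitochondrial counts and without barcodes shared between libraries, and 0 with clusters weighted equally. In LN over spleen under ICOS FC, members lower numbered 4, but 12 with median-of-ratios scaling and with those reduced totals, 2 with each cell given equal weight and 9 among cells holding a Foxp3 UMI. Under ICOS WT, members higher numbered 50, but 29 with median-of-ratios scaling and 23 with reduced totals, and members lower numbered 3, but 8 with median-of-ratios scaling, 10 with reduced totals, 1 with each cell given equal weight, 1 without the 5% of cells with most UMIs and 6 among cells holding a Foxp3 UMI. The other 60 counts under alternatives stayed within 1.5 times. Among values of named members, 541 stayed within their counting interval, 342 left it and 1 called value, that of mt-Nd6, reversed. Of 93 named ratios, 16 changed sign under some alternative, mt-Nd6 and others near equality such as mt-Co1 in LN over spleen under ICOS WT, which reached 0.015 with each cell given equal weight. Leaving out shared barcodes, and leaving out spleen cluster 4 with LN clusters 6 and 7, were chosen after seeing the data.

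No paired analysis was possible because each group is 1 library, and no replicate was left out for the same reason. Depth limits members near 20 CPM most, and none of the intervals covers differences between animals, sorts or library preparations.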
